A study of Mus musculus with 7 samples.

Results

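The genes described here are 51 genes of protein entry, folding and quality control in the endoplasmic reticulum (ER), taken from the liver expression table by gene symbol. All 51 were among the 23594 genes of the table, and all 51 passed the minimum level for testing. They comprise 9 luminal chaperones and their partners, 8 lectins and disulfide enzymes, 3 sensors of the unfolded protein response (UPR) with the transcription factor Xbp1, 9 genes of ER-associated degradation (ERAD), 9 of the translocon, 5 of signal peptidase, 5 of the oligosaccharyltransferase and 2 of the COPII coat. RNA sequencing of whole liver compared 4 TgLC mice with 3 TgL mice. TgLC mice carry both a mouse Lif transgene, silenced by a STOP cassette and placed behind the CAG promoter at the Rosa26 locus, and R26-CreERT2, a Cre recombinase expressed from Rosa26 in all tissues and activated by tamoxifen (TAM). TgL mice carry the same silenced transgene without Cre. Both genotypes received TAM intraperitoneally, at 32 µg per g body weight in females and 64 µg per g in males, so that TAM itself is shared and the STOP cassette is removed only where Cre is present. The paper's name for the construct also includes eGFP. The R26-CreERT2 allele, activated Cre and any eGFP released along with Lif occur only in TgLC mice. Their effects cannot be told apart from those of Lif. Lif, leukemia inhibitory factor, is an IL-6 family cytokine, and since it is induced in the whole body the liver can respond to it directly or through other organs and the wasting of these mice. The labels give neither the sex, the age nor the day of collection of a mouse. Each library is 1 mouse, called by its genotype and a number, and p-values measure the spread between these mice.

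Proteins bound for secretion or for membranes enter the ER through the Sec61 channel, lose their signal peptide, receive N-linked glycans and fold with the help of chaperones and disulfide isomerases. Chains that fail to fold are returned to the cytosol by ERAD, and the UPR sensors Ire1 (gene Ern1), Perk (Eif2ak3) and Atf6 adjust the whole apparatus to the load. Hepatocytes secrete most plasma proteins, including the acute-phase proteins that cytokines of the IL-6 family induce through Stat3. The UPR acts on many of these genes through the ER stress response element (ERSE), which is bound by Atf6 together with the CCAAT-binding factor NF-Y.

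The promoter of 42 of the 51 genes could be matched in RefSeq (GRCm38.p6, 250 bases before to 50 after the start), and both strands were searched for the ERSE, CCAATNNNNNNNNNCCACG. It was found in 10 of the 42 promoters (23.8%), against 20 of the 9863 promoters of genes tested that could be matched (0.203%) and 39 of the 32851 promoters of the table (0.119%). The element was first described from mammalian genes of this kind, Hspa5 among them, so its share here is not independent of the list. The matches are shown because they are the letters through which the UPR is known to act, with the fixed letters in capitals and each read 5′ to 3′ in the direction that begins with CCAAT:

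Hspa5: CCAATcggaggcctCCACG
Hsp90b1, far: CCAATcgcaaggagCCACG
Hsp90b1, near: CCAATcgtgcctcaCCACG
Dnajc3: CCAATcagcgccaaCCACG
Creld2: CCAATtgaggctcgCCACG
Calr: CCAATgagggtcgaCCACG
Canx: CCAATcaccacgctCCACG
Pdia6: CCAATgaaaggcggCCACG
Ero1lb: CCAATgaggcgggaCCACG
Syvn1: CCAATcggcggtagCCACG
Derl3: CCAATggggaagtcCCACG

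Hsp90b1 had 2 matches, 193 and 88 bases before its start. The Hspa5 match lay 46 bases before the start and that of Syvn1 25 bases, and the others lay 79 to 182 bases before it. A related shorter element, ERSE-II (ATTGGNCCACG), was found in 2 of the 42 promoters, against 0.0913% of the promoters of genes tested. It lay 41 bases before the start of Herpud1 and past the start of Dnajb11:

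Dnajb11: ATTGGcCCACG
Herpud1: ATTGGgCCACG

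The UPR element core TGACGTGG was found for Sec24d alone of the 42 (1.06% of promoters of genes tested), and a Stat-type element, TTCNNNGAA, for 4 of 42 (9.52%, against 8.54%). The 250 bases before the start are given for Hspa5 (chr2:34771840-34772089, plus strand), Calr (chr8:84846932-84847181, minus strand) and Canx (chr11:50325674-50325923, minus strand), since Calr and Canx hold the same element and gave different values in these livers. In Calr the element runs on the other strand, and the capitals show its complement:

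Hspa5: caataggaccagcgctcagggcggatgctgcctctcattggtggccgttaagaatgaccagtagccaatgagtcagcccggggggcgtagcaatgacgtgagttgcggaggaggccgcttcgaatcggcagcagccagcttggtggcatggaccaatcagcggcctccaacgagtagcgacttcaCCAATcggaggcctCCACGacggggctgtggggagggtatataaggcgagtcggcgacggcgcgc

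Calr: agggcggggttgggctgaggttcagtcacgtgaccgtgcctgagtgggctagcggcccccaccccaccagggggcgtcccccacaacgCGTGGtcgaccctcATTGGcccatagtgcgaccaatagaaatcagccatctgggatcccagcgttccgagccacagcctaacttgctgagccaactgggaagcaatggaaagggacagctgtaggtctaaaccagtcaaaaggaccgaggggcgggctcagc

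Canx: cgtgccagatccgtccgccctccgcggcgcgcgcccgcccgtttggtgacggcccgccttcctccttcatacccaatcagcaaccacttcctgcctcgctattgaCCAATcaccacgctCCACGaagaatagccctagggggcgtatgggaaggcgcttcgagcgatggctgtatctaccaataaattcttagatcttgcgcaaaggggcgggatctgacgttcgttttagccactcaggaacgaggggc

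Of the 51 genes, 35 rose in TgLC livers, 1 fell and 15 did not pass (limma on log2(normalized count + 1), Benjamini-Hochberg adjusted p under 0.05 over the 13145 genes tested). That is 68.6% of the list higher, where 16.2% of all genes tested were higher, and 1.96% lower, where 15.0% of all genes were lower. The median log2 fold change, TgLC over TgL, was 0.59 over the 51 genes and 0.0 over all genes tested. Every TgLC mouse was above every TgL mouse for 39 of the 51 (76.5%; 21.1% of all genes tested), every TgLC mouse was below every TgL mouse for 3 (Canx, Ern1 and Derl2; 19.9% of all genes tested), and the groups overlapped for 9. The changes were mostly moderate: 9 of the 35 rose at least 2-fold, a change that 7.53% of all genes tested reached. Of the 35, 28 passed whichever 1 mouse was left out. How many of all genes that rose did so was not counted, so the 28 of 35 has no background of its own.

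**Figure D1:**
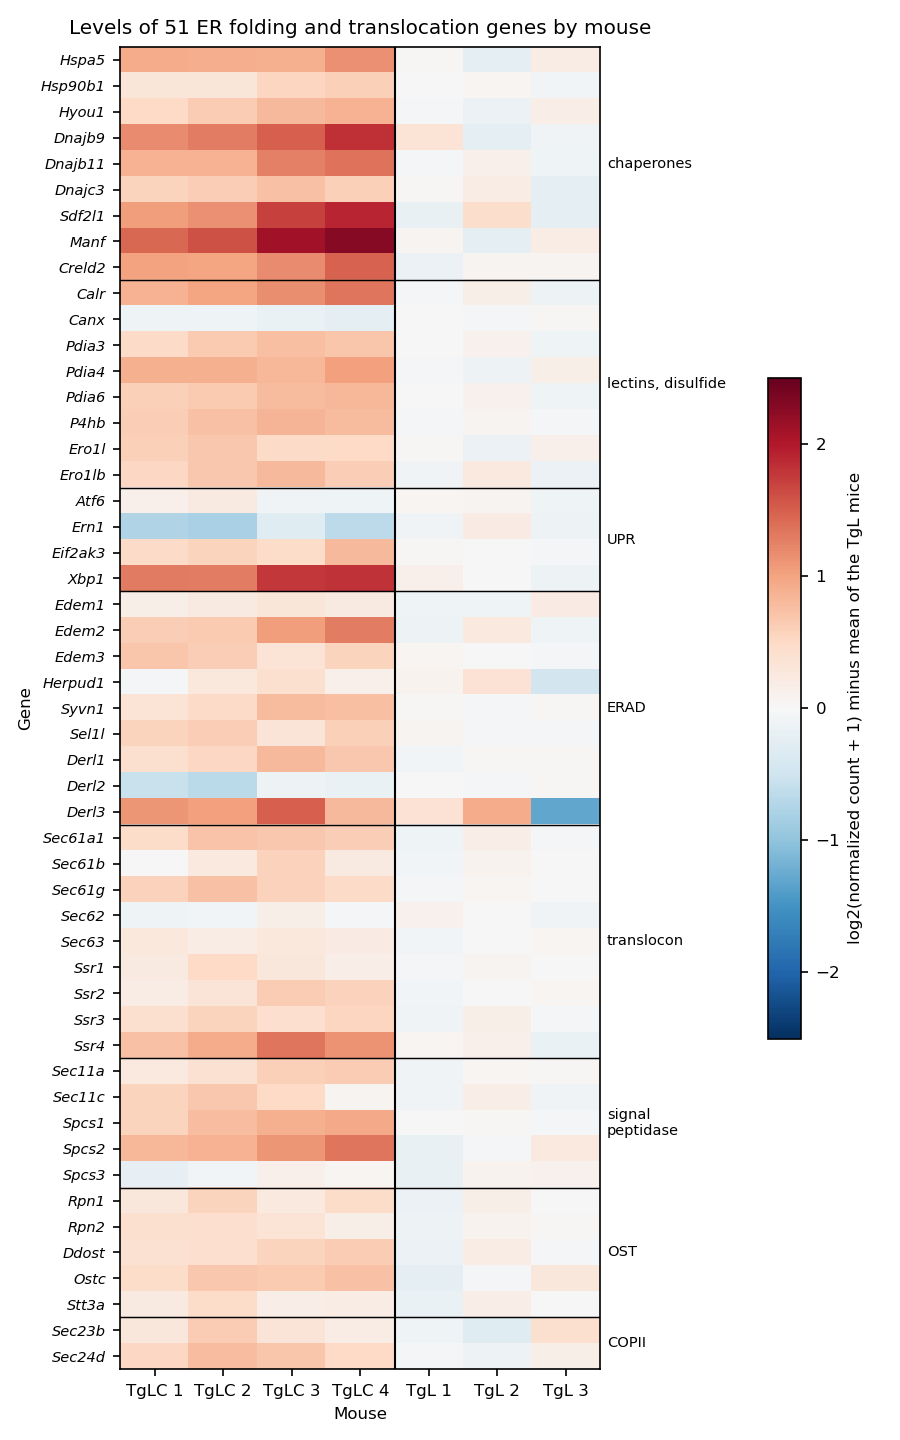
Each row is 1 gene, each column 1 mouse (TgLC 1 to 4 on the left, TgL 1 to 3 on the right), and the colour is log2(normalized count + 1) minus the mean of the TgL mice on that scale. Red predominates in all 4 TgLC columns, strongest for Manf, Sdf2l1, Dnajb9 and Xbp1, while Ern1, Derl2 and Canx are blue in all 4.

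How the libraries are scaled bears on all of these values. The 27 listed acute-phase genes took 28.8% ± 1.06 of the reads in TgLC livers and 5.16% ± 0.214 in TgL livers (SD, n = 4 and n = 3), and DESeq2 size factors, which the authors used, leave such a rise out of the scaling. On that scale the 51 genes together had 121694, 129131, 139279.7 and 142853 normalized counts in TgLC livers, against 83399, 87632 and 83039.9 in TgL livers, a ratio of means of 1.57. As a share of all reads they held 1.11% ± 0.0654 in TgLC livers and 0.876% ± 0.0336 in TgL livers, a ratio of 1.26, and the 4 shares in TgLC mice (1.02% to 1.18%) all lay above the 3 in TgL mice (0.846% to 0.912%). With the acute-phase genes left out of the total the shares were 1.55% ± 0.0737 in TgLC livers and 0.923% ± 0.0336 in TgL livers. A scaling by library totals alone (edgeR on the recovered reads) moved the median of all genes to -0.31 and gave 16 of the 51 genes higher (8.83% of the 13572 genes it tested) and 4 lower, namely Canx, Ern1, Derl2 and Sec62 (32.1% of all genes). All 16 were among the 35, and the median of the 51 genes was then 0.28. Statements below are on the DESeq2 scale unless the other is named. In bulk liver, fewer cells of a type and less RNA per cell cannot be told apart.

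**Figure D2:**
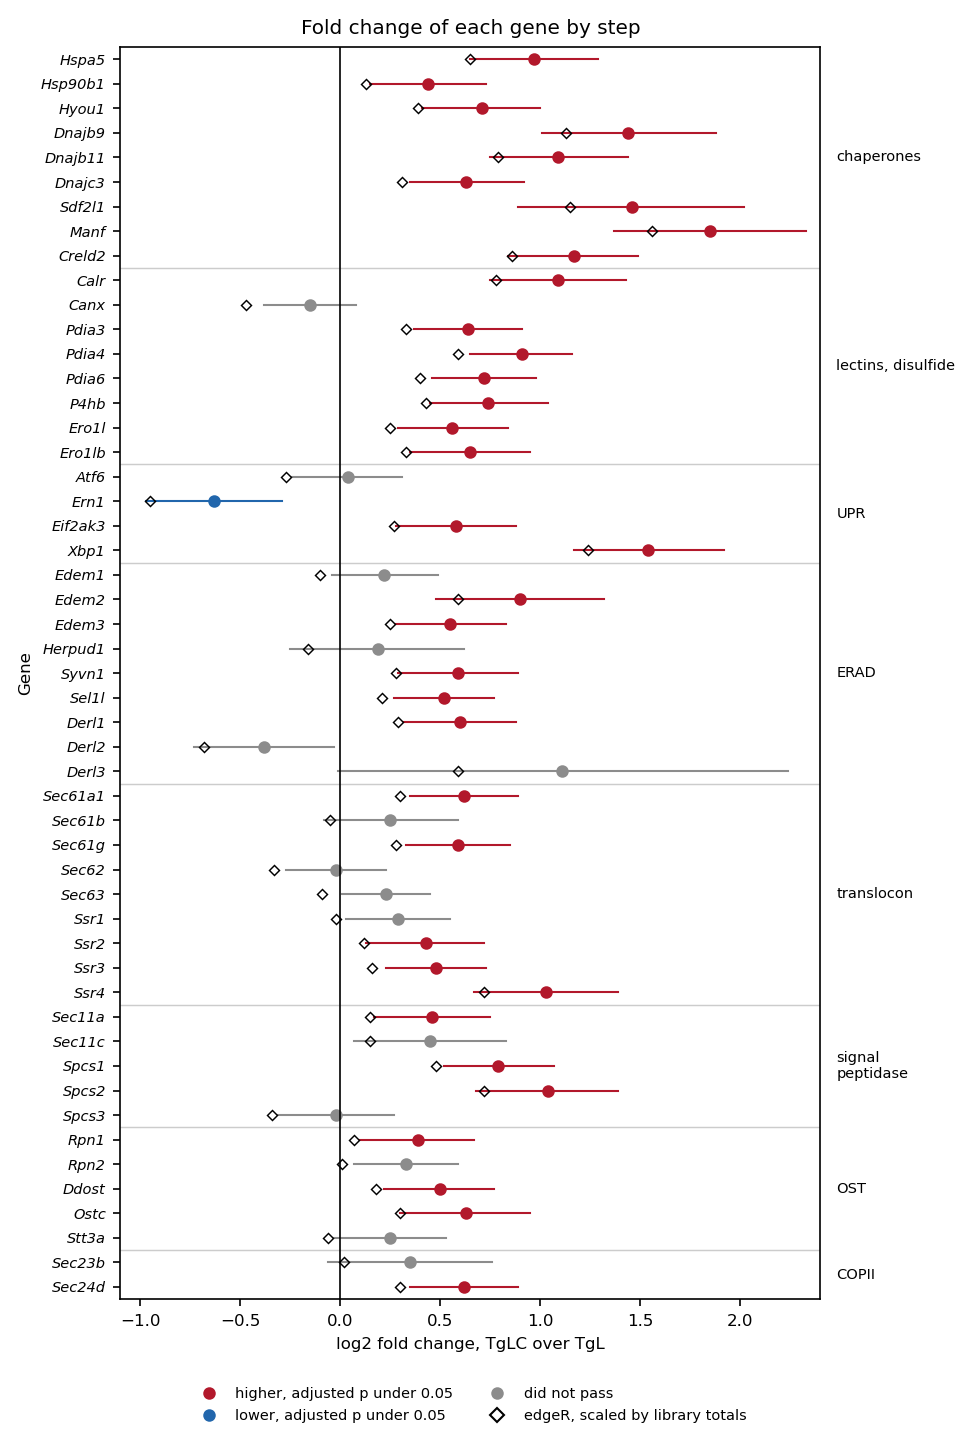
The log2 fold change of each gene, TgLC over TgL, with its 95% confidence interval from limma (filled circles, coloured by call) and the value from edgeR with library totals (open diamonds). The diamonds lie to the left of the circles throughout, and those of Dnajb9, Sdf2l1, Manf and Xbp1 stay above 1.

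The luminal chaperones and their partners gave the highest values: 9 of 9 rose, with a median log2 fold change of 1.09, and 7 of the 9 also under library totals. Hspa5, the Hsp70-type chaperone BiP that holds newly entered chains, was the most abundant of them by reads, with 12294, 12166, 11984 and 14309.6 normalized counts in TgLC mice, against 6610.1, 5539 and 7321 in TgL mice. All TgLC mice lay above all TgL mice, TgLC 4 furthest, and Hspa5 rose by a log2 fold change of 0.97 ± 0.14 (SE, adjusted p = 0.00107, limma). Manf, a small ER protein that binds BiP and slows its nucleotide exchange, had the highest fold change of the 51 genes, with 1225, 1373, 1944 and 2191 in TgLC mice against 475, 380.2 and 516 in TgL mice. This is a log2 fold change of 1.85 ± 0.21 (adjusted p = 0.00031, limma), and TgLC 3 and TgLC 4 were the highest.

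The J-domain proteins direct BiP to its clients. Dnajb9 (ERdj4), which also holds Ire1 in check, had 798, 845, 991 and 1237 normalized counts in TgLC mice, against 444, 294 and 328 in TgL mice (log2 fold change 1.44 ± 0.19, adjusted p = 0.000654, limma). Dnajb11 (ERdj3), which binds unfolded chains ahead of BiP, had 1293, 1283, 1697 and 1818 in TgLC mice and 692, 771 and 655 in TgL mice (1.09 ± 0.15, adjusted p = 0.000898, limma). Sdf2l1, a stable partner of Dnajb11, had 473, 505, 746 and 857 in TgLC mice and 199, 308 and 192 in TgL mice (1.46 ± 0.25, adjusted p = 0.00251, limma). No TgLC mouse overlapped a TgL mouse for any of the 3 genes, and TgLC 3 and TgLC 4 were above TgLC 1 and TgLC 2 for each. Creld2, an ER protein with EGF-like repeats that is known as a target of ER stress, had 567, 559, 636 and 781 in TgLC mice and 255, 294 and 295 in TgL mice (1.17 ± 0.14, adjusted p = 0.000446, limma). The remaining 3 rose less, with log2 fold changes of 0.71 for Hyou1, the nucleotide exchange factor of BiP, 0.63 for Dnajc3 and 0.44 for Hsp90b1, the Hsp90 of the ER. The calls on Dnajc3 and Hsp90b1 ended under library totals (0.31 and 0.13), that on Hsp90b1 also without TgL 1, TgL 2, TgL 3 or TgLC 4, and 10.3% of the exonic bases of Hsp90b1 overlap a gene on the opposite strand.

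Among lectins and disulfide enzymes 7 of 8 rose (median 0.69), and the exception was Canx. Calr (calreticulin), the soluble lectin that holds glycoproteins with a trimmed glycan, had 12662, 13594, 15375 and 17443 normalized counts in TgLC mice, against 6783, 7634 and 6306 in TgL mice. It rose by 1.09 ± 0.15 on the log2 scale (adjusted p = 0.000831, limma), and the lowest TgLC mouse was well above the highest TgL mouse. Canx (calnexin), the membrane-bound lectin of the same cycle, had 3683, 3665, 3531 and 3358 in TgLC mice and 3934, 3865 and 4049 in TgL mice. Every TgLC mouse was below every TgL mouse, but the log2 fold change was -0.15 (95% interval -0.38 to 0.08, adjusted p = 0.29, limma) and did not pass. Under library totals it was -0.47 and did (adjusted p = 0.00957, edgeR). The interval of Canx lay wholly below that of Calr (0.75 to 1.43), and the ratio of Calr to Canx counts within a mouse, in which the scaling cancels, was 3.44 to 5.19 in TgLC mice and 1.56 to 1.98 in TgL mice. Both promoters hold an ERSE, printed above.

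The protein disulfide isomerases make and rearrange disulfide bonds. Pdia4 (ERp72) had 4266, 4234, 4107 and 4655 normalized counts in TgLC mice, against 2263, 2099 and 2563 in TgL mice (log2 fold change 0.91 ± 0.11, adjusted p = 0.000504, limma). Pdia6 had 3632, 3743, 4128 and 4279 in TgLC mice and 2377, 2585 and 2228 in TgL mice (0.72 ± 0.11, adjusted p = 0.00176, limma). The 4 TgLC mice were above the 3 TgL mice for both. P4hb, the classical isomerase, and Pdia3, which works with calnexin and calreticulin, rose by 0.74 and 0.64, and P4hb was the most abundant of all 51 genes by reads, at 20393 ± 1477 in TgLC and 12158 ± 522 in TgL livers (SD, n = 4 and n = 3). The oxidases that recharge the isomerases rose by 0.56 (Ero1l) and 0.65 (Ero1lb). These 2 and Pdia3 did not pass under library totals, at 0.25, 0.33 and 0.33 for Ero1l, Ero1lb and Pdia3, where the other 4 that rose did.

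The UPR genes did not move together: 2 of 4 rose, 1 fell and 1 did not pass. Xbp1, whose mRNA is spliced by Ire1 into the active transcription factor, had 4200.2, 4094, 5808 and 5971 normalized counts in TgLC mice, against 1861, 1680.2 and 1562 in TgL mice. Its log2 fold change of 1.54 ± 0.17 (adjusted p = 0.000216, limma) was the second highest of the list, with TgLC 3 and TgLC 4 again the highest. Counts per gene do not separate its spliced from its unspliced form. Ern1, the gene of Ire1 itself, was the only one of the 51 genes to fall, with 623, 604, 852 and 672 in TgLC mice and 991, 1224 and 967 in TgL mice. The groups did not overlap, and the log2 fold change was -0.63 ± 0.15 (adjusted p = 0.0129, limma). It stayed lower under library totals (-0.95), but the call was lost without TgL 2, the highest mouse. The ratio of Xbp1 to Ern1 counts was 6.74 to 8.88 in TgLC mice and 1.37 to 1.88 in TgL mice.

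Eif2ak3, the gene of Perk, the sensor that slows translation, had 203, 215, 200.3 and 256 normalized counts in TgLC mice, against 148, 146 and 142 in TgL mice (log2 fold change 0.58 ± 0.13, adjusted p = 0.00976, limma). The groups did not overlap, but under library totals Eif2ak3 was at 0.27 and did not pass (adjusted p = 0.135, edgeR). Atf6, the membrane-bound transcription factor that is cleaved in the Golgi, had 1009, 1079.9, 877 and 855 in TgLC mice and 955, 971 and 859 in TgL mice. These overlap, and the log2 fold change was 0.04, with a 95% interval of -0.24 to 0.31 (adjusted p = 0.843, limma). Under library totals the Atf6 value turned to -0.27. These are mRNA levels, and the activity of the 3 sensors, which is set by cleavage, splicing and phosphorylation, was not measured.

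**Figure D3:**
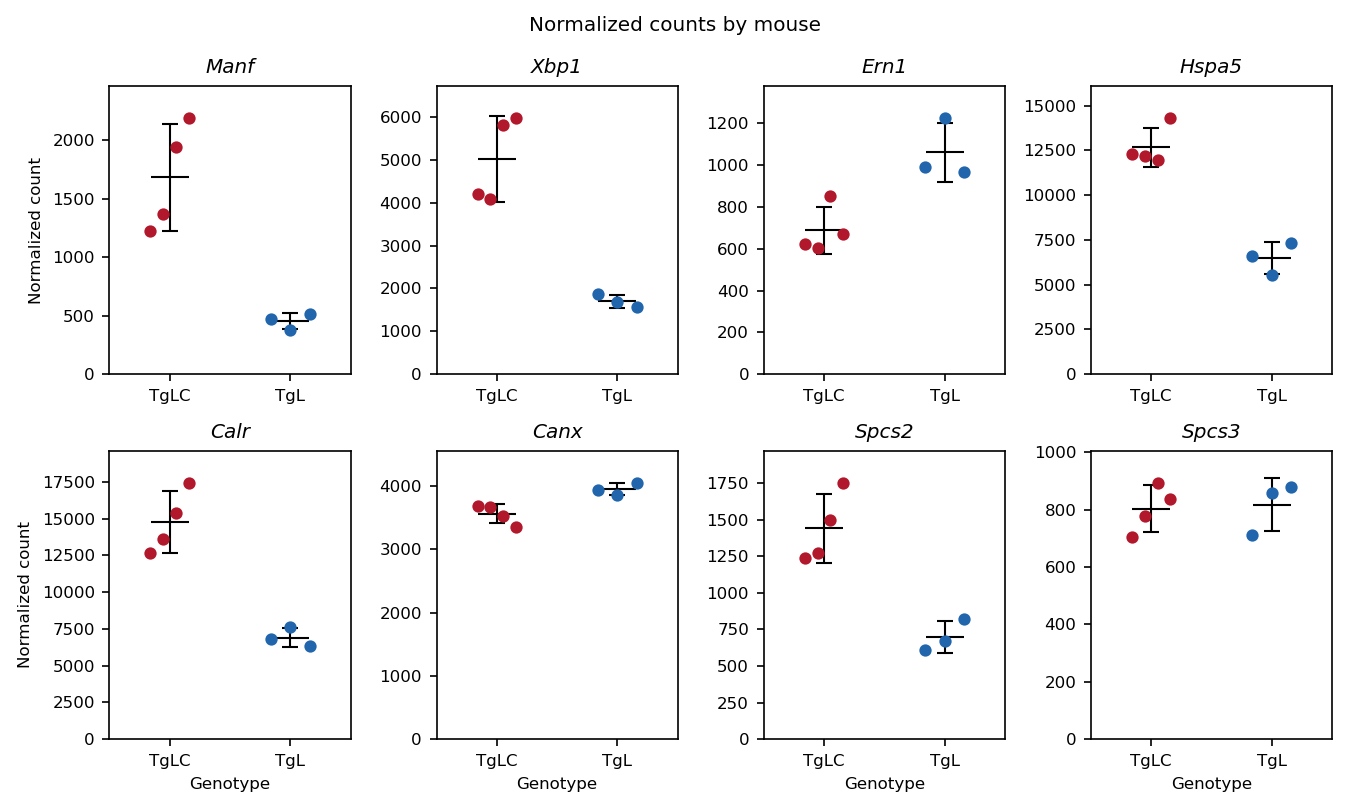
Normalized counts by mouse for 8 genes, on axes that start at 0. Points are mice, TgLC in red on the left and TgL in blue on the right, and the bars give the mean and SD. Manf, Xbp1, Hspa5, Calr and Spcs2 are higher in all TgLC mice, Ern1 and Canx lower in all TgLC mice, and Spcs3 overlaps.

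In ERAD 5 of 9 genes rose (median 0.55). Edem2, which trims mannose to mark misfolded glycoproteins, had 628, 645, 854 and 999 normalized counts in TgLC mice, against 375, 485 and 382 in TgL mice (log2 fold change 0.90 ± 0.19, adjusted p = 0.00652, limma). Sel1l, the adaptor of the Hrd1 ubiquitin ligase, had 2659, 2787, 2284 and 2736 in TgLC mice and 1899, 1771 and 1779 in TgL mice (0.52 ± 0.11, adjusted p = 0.00756, limma). Derl1, a derlin of the retrotranslocation machinery, had 1477, 1616, 1982 and 1784 in TgLC mice and 1073, 1149.6 and 1151 in TgL mice (0.60 ± 0.12, adjusted p = 0.00644, limma). For these 3 genes each TgLC mouse was above each TgL mouse. Syvn1, the gene of Hrd1, rose by 0.59 and Edem3 by 0.55. Under library totals 1 of the 9 was higher (Edem2) and 1 lower (Derl2).

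The other 4 ERAD genes did not pass. Derl2, a second derlin, had 664, 607, 893 and 872 normalized counts in TgLC mice, against 962, 959 and 997 in TgL mice. All TgLC mice were lower, but the log2 fold change of -0.38 missed the threshold (95% interval -0.73 to -0.03, adjusted p = 0.0938, limma). Derl2 did pass as lower without TgLC 3, its highest TgLC mouse. Derl1 to Derl2 count ratios were 2.05 to 2.66 in TgLC mice and 1.12 to 1.2 in TgL mice. Edem1 had a log2 fold change of 0.22 and Herpud1, a scaffold of the Hrd1 complex, of 0.19, and their groups overlapped. Both turned negative under library totals, at -0.10 for Edem1 and -0.16 for Herpud1. Derl3 was near the minimum level, at 26, 24.6, 34.4 and 21 in TgLC mice and 15.2, 22.9 and 4.08 in TgL mice, so that its log2 fold change of 1.11 came with an interval of -0.01 to 2.24.

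At the translocon 5 of 9 genes rose (median 0.43), and 7 of 9 had every TgLC mouse above every TgL mouse. Sec61a1, the channel itself, had 1864, 2209, 2164 and 2083 normalized counts in TgLC mice, against 1247, 1526 and 1298 in TgL mice (log2 fold change 0.62 ± 0.12, adjusted p = 0.00434, limma). Its small partner Sec61g had 315, 355, 318 and 297 in TgLC mice and 204, 219 and 214 in TgL mice (0.59 ± 0.11, adjusted p = 0.00463, limma). Sec61b, the other small subunit, overlapped between groups (0.25, 95% interval -0.08 to 0.59). Ssr4, of the translocon-associated TRAP complex that helps chains to enter, had 911, 1050.3, 1395 and 1195 in TgLC mice and 565, 601 and 489 in TgL mice. Its log2 fold change of 1.03 ± 0.16 (adjusted p = 0.00144, limma) was the highest of the step, and it alone of the 9 was higher under library totals. Of the other TRAP subunits Ssr2 and Ssr3 rose by 0.43 and 0.48, and Ssr1 did not pass (0.29, adjusted p = 0.0814, limma). The Ssr2 call was lost without any 1 of the TgL mice, TgLC 3 or TgLC 4 and the Ssr3 call without TgL 1, and 12.8% of the exonic bases of Ssr2 overlap a gene on the opposite strand. Sec62 and Sec63, which serve post-translational entry and hand chains to BiP, had log2 fold changes of -0.02 and 0.23 and did not pass. Sec62 was lower under library totals (-0.33), where Sec61b, Sec63 and Ssr1 stood at -0.05, -0.09 and -0.02.

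Signal peptidase, which cleaves the signal peptide, showed 3 of 5 genes higher (median 0.46). Spcs2, an accessory subunit, had 1241, 1272, 1495 and 1752 normalized counts in TgLC mice, against 609.9, 671 and 822 in TgL mice (log2 fold change 1.04 ± 0.16, adjusted p = 0.00142, limma). Spcs1 had 602, 695, 755 and 786 in TgLC mice and 410.4, 413 and 397 in TgL mice (0.79 ± 0.12, adjusted p = 0.00141, limma). In both genes the groups were well apart, and 16.3% of the exonic bases of Spcs1 overlap Glt8d1 on the opposite strand. Sec11a, a catalytic subunit, had 428, 472, 545 and 558 in TgLC mice and 339, 375 and 371 in TgL mice (0.46 ± 0.13, adjusted p = 0.0243, limma), a call that was lost without any 1 of the TgL mice or TgLC 4 and under library totals (0.15, adjusted p = 0.348, edgeR). Spcs3 overlapped between groups, at 803 ± 81.6 in TgLC and 817 ± 92.1 in TgL livers (SD, n = 4 and n = 3). Its log2 fold change was -0.02 (95% interval -0.31 to 0.27), below the whole interval of Spcs2 (0.68 to 1.39), and the ratio of Spcs2 to Spcs3 counts was 1.64 to 2.09 in TgLC mice and 0.781 to 0.934 in TgL mice. Sec11c, the other catalytic subunit, had a log2 fold change of 0.45 and did not pass (adjusted p = 0.0705, limma). Sec11c did pass without TgLC 4, its lowest TgLC mouse.

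The oligosaccharyltransferase, which attaches the N-glycan to the entering chain, showed 3 of 5 genes higher, with log2 fold changes no greater than 0.63 (median 0.39). Ostc, a subunit that links the enzyme to the translocon, had 529, 613, 606 and 640.1 normalized counts in TgLC mice, against 324, 378 and 467 in TgL mice (0.63 ± 0.14, adjusted p = 0.0107, limma). Ddost had 1256, 1306, 1418 and 1512 in TgLC mice and 879, 1099 and 944 in TgL mice (0.50 ± 0.12, adjusted p = 0.0138, limma). Rpn1 had 1683, 2054, 1645 and 1914 in TgLC mice and 1258, 1543 and 1379 in TgL mice (0.39 ± 0.13, adjusted p = 0.0437, limma). Each TgLC mouse was above each TgL mouse for all 5 genes of the step, including Rpn2 (0.33) and the catalytic subunit Stt3a (0.25), which did not pass. Rpn2 did pass without TgLC 4, its lowest TgLC mouse. The calls on Ostc and Ddost were lost without TgL 1 and that on Rpn1 without any 1 of the TgL mice, TgLC 2 or TgLC 4, and under library totals these 3 did not pass, at 0.30 for Ostc (adjusted p = 0.139, edgeR), 0.18 for Ddost (0.283) and 0.07 for Rpn1 (0.702), while Stt3a stood at -0.06. Of the COPII coat that carries folded cargo to the Golgi, Sec24d, a cargo-binding subunit, had 1056, 1248, 1189 and 1031 in TgLC mice and 723, 671 and 816 in TgL mice (0.62 ± 0.12, adjusted p = 0.00481, limma), and did not pass under library totals (0.30, adjusted p = 0.0868, edgeR). Sec23b, of the same inner coat, overlapped between groups (0.35, 95% interval -0.06 to 0.76) and passed without TgL 3, its highest TgL mouse (0.55, adjusted p = 0.0397, limma).

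Partner genes of 1 complex or cycle thus differed within a step. The pairs were picked after their values were seen. The count ratios and the comparisons of intervals within pairs above are given as a description with no test. The ratios have no adjustment for transcript length.

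**Figure D4:**
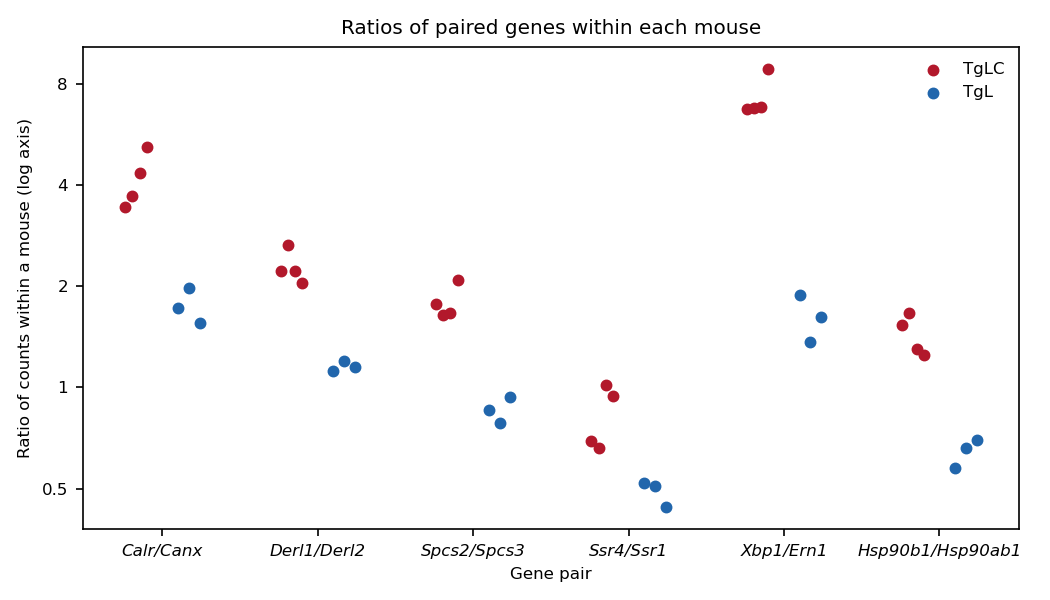
Ratios of the counts of gene pairs within each mouse on a log axis, TgLC in red on the left and TgL in blue on the right of each pair. The ratio is higher in every TgLC mouse for all 6 pairs, for example 3.44 to 5.19 in TgLC mice and 1.56 to 1.98 in TgL mice for Calr to Canx.

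Of the 10 genes with an ERSE 8 rose (Canx and Derl3 did not pass), where 29 of all 42 matched genes rose. The median log2 fold change was 0.69 over the 10 with the element and 0.54 over the 32 matched genes without it. Of the 10 other genes tested whose promoter holds the letters of the ERSE, 4 rose and 2 fell, with a median of -0.32. Xbp1 rose without a match in its window, and Manf was not matched in the promoter table. A match of letters does not show binding, and its absence from the window shows nothing of the factor.

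The TgLC mice were not alike. TgLC 3 and TgLC 4, whose titles begin with letters where the other 5 titles are numbers, were both above TgLC 1 and TgLC 2 for 25 of the 51 genes (49.0%, against 33.1% of all genes tested), among them 21 of the 35 that rose, and both below them for 7 (26.1% of all genes). The matching share among all genes that rose was not counted, so the 21 of 35 has no background of its own. In the same 2 mice the summed markers of plasma and B cells were at 122 and 78.1 normalized counts, against 533 and 481 in TgLC 1 and TgLC 2, and those of stellate and endothelial cells at 3674 and 3129.6, against 8074 and 6327. Neutrophil markers were at 144 and 100.2, against 214 and 191. Macrophage and Kupffer cell markers did not split this way, at 6521 and 3667 against 5588 and 5363. Hepatocyte markers were at 1181601 and 1173431, against 1036866 and 1155316. The part of these cells in the values was not tested, and the labels do not say what the title forms mean. With both of these mice left out, 36 of the 51 genes were higher (16.9% of all genes tested then) and 2, Ern1 and Derl2, were lower (18.2%). Within the 4 mice whose titles form 1 number series (TgLC 1 and 2, TgL 1 and 2), 37 of the 51 were higher (18.7% of the 13252 genes tested there) and the same 2 lower (19.7%), with a median of 0.52. Among the 3 other mice (TgLC 3 and 4 and TgL 3) 9 were higher (3.85% of 13000 genes), with a median of 0.64. The lone TgL mouse is there assumed to vary like the others. With the title series (in or out of the number series) as a second term over all 7 mice, 37 of the 51 were higher (17.1% of all genes) and 2, Ern1 and Derl2, were lower (16.2%). This term groups TgL 3, whose title is a number, with TgLC 3 and TgLC 4. The labels do not link these 3 mice, and lettered titles occur only in TgLC mice. The fit is therefore no adjustment for the lettered titles alone or for a known batch.

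The depth was 11325974 to 12448961 reads in genes in TgLC and 9367681 to 11030699 in TgL libraries. Lif itself had 10, 12, 10 and 25 reads in TgLC livers, against 1, 2 and 0 in TgL livers, the order that the labels imply. The 10 listed hepatocyte markers, Alb among them, made up 8.71% to 9.97% of reads in TgLC livers and 15.1% to 15.5% in TgL livers, and 1 of the 10 rose and 4 fell. Of the exocrine pancreas, a tissue rich in these ER genes, 14 of 14 tested markers fell (18 were listed), at a sum of 42 to 56.7 normalized counts in TgLC livers and 817 to 1316 in TgL livers. Of the 11 markers of plasma and B cells, the plasma cells among them also rich in ER, 6 could be tested and did not pass, at sums of 78.1 to 533 in TgLC livers and 205 to 457 in TgL livers. Neutrophil markers summed to 100.2 to 214 in TgLC livers and 31.9 to 99.9 in TgL livers, and 3 of 4 tested rose. Of 8 macrophage and Kupffer cell markers 0 rose and 1 fell, and of 10 stellate and endothelial cell markers 2 rose and 0 fell. The part of these cells in the gene values was not tested.

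Other genes of the secretory pathway were taken from a list of 168, of which 165 could be tested. Of these 56 (33.9%) rose and 6 (3.64%) fell, where 16.2% of all genes tested rose and 15.0% fell. The median log2 fold change of the list was 0.29. Under library totals 19 (11.5%) rose and 32 (19.4%) fell, where 8.83% of all genes rose and 32.1% fell, and the median of the list was -0.03 where that of all genes was -0.31. Without TgL 1 31 of the list rose, and without TgL 2 37 did. All genes called in either direction numbered 2586 without TgL 1 and 2694 without TgL 2, against 4104 in the main fit. The share of all genes that rose in those 2 fits was not counted, so the 31 and 37 have no background of their own. The highest share was among other UPR genes, 10 of 17, and under library totals 3 of the 17 were higher and 1 lower. Creb3l2, an ER-bound transcription factor that supports secretion, was at 674 ± 33.5 in TgLC and 262 ± 43.2 in TgL livers (SD, n = 4 and n = 3). Chac1, a glutathione-degrading target of the Perk branch, was at 317 ± 91.6 in TgLC and 44.1 ± 21.9 in TgL livers. In the same class Atf4 and Ppp1r15a also rose, with log2 fold changes of 0.6 and 0.62. Ddit3 (0.41) and Trib3 (-0.39) did not pass. Of other folding genes 11 of 30 rose, led by the sulfhydryl oxidase Qsox1, which acts mainly in the Golgi and outside the cell, with 15404, 15972, 21026 and 15739 normalized counts in TgLC mice against 4031, 3967 and 3975 in TgL mice (log2 fold change 2.08, adjusted p = 1.69e-05, limma). Of other ERAD genes 7 of 26 rose, among them the ubiquitin-conjugating enzyme Ube2g2 (1.15). In the remaining classes 4 of 10 genes of the signal recognition particle and its receptor rose, 3 of 6 further oligosaccharyltransferase genes, with Stt3b (0.79), the catalytic subunit of the second enzyme form, 6 of 16 of retrieval and COPI, with the cargo receptor Tmed9 (1.01), 7 of 21 of COPII and cargo receptors, 5 of 20 of glycan assembly and 3 of 19 of other translocation and insertion factors. The 3 of 19 make 15.8%, near the 16.2% of all genes tested that rose. The 6 that fell were Sec31b, Sec16b, Emc9, Emc1, Magt1 and Dolpp1, with log2 fold changes of -1.01 to -0.42.

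Among chaperones of other compartments more fell than rose. Of 18 cytosolic chaperones tested 1 rose (Bag3, 0.82) and 7 fell, among them the chaperonin subunits Cct4 (-0.65) and Tcp1 (-0.42), with a median of -0.37. The number that fell was 14 under library totals, 1 without TgL 1, 2 without TgL 2 and 4 without TgLC 2. Under library totals 32.1% of all genes fell, against 15.0% in the main fit. All genes called numbered 2586 without TgL 1, 2694 without TgL 2 and 3596 without TgLC 2, against 4104 in the main fit. Of 8 mitochondrial chaperones 1 rose (Dnaja3, 0.73) and 4 fell, among them Trap1 (-0.90) and Hspa9 (-0.56), and 2 fell without TgL 1, TgL 2, TgLC 1 or TgLC 2. Within a mouse the ratio of Hsp90b1 to its cytosolic relative Hsp90ab1 was 1.25 to 1.67 in TgLC mice and 0.575 to 0.698 in TgL mice. The ratio of Hspa5 to the cytosolic Hspa8 was 1.16 to 1.67 in TgLC mice and 0.52 to 1.1 in TgL mice, so that TgL 3 came close to the lowest TgLC mouse. Of the acute-phase genes 24 of 27 rose, with a median log2 fold change of 3.23, above the highest value of the 51 genes (1.85).

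**Figure D5:**
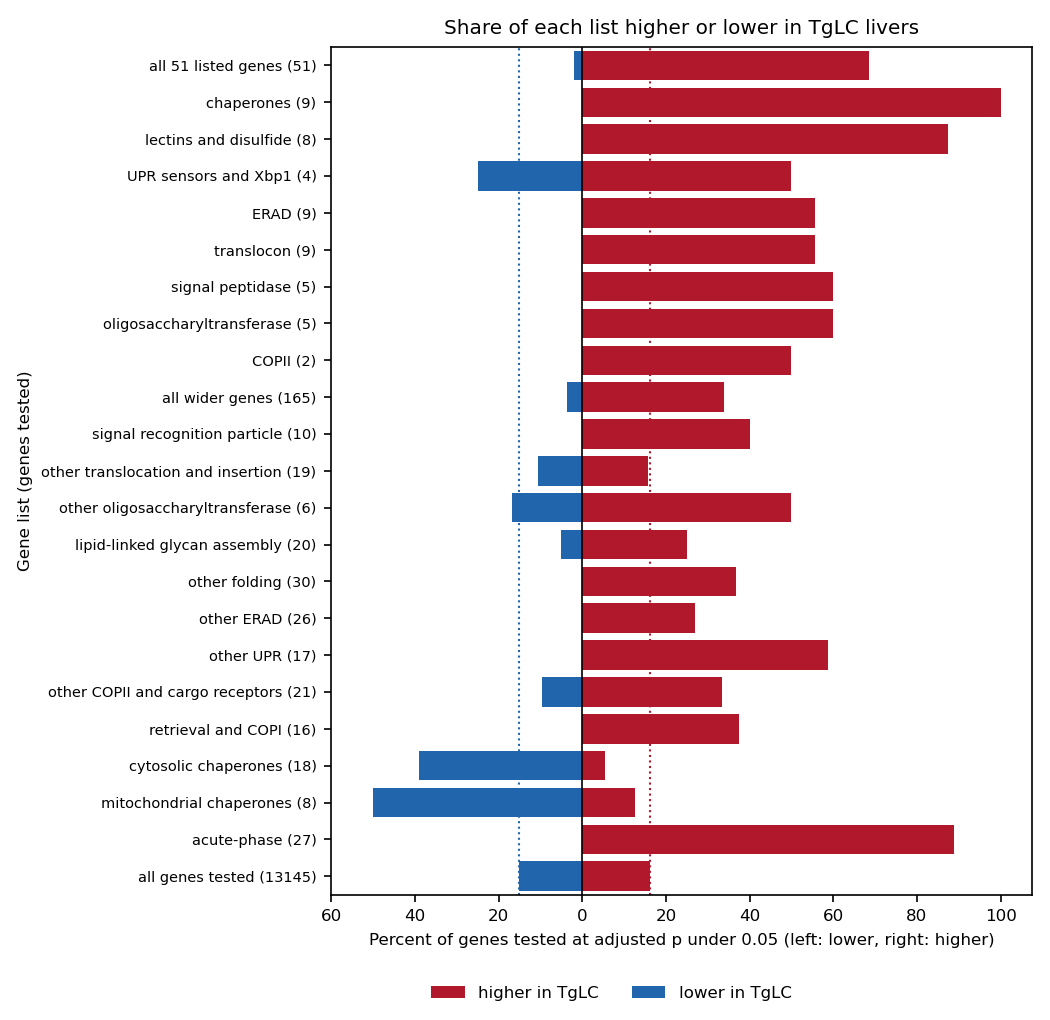
Percent of the genes tested in each list that were higher (red, to the right) or lower (blue, to the left) in TgLC livers at an adjusted p under 0.05, with the number tested in brackets. The dotted lines mark all genes tested, 16.2% higher and 15.0% lower, and the luminal chaperones are at 100% higher.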

How the data were processed

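Liver RNA of 4 TgLC and 3 TgL mice, all given TAM, was sequenced. The submitters' processing notes name the programs fastp, HISAT2 (version 2.0.5), featureCounts (version 1.5.0-p3) and DESeq2 (version 1.20.0). Annotation, genome build and the use of strand in counting were not given in the sources used here. The deposited values are a normalized signal, that is, counts per gene divided by the authors with 1 DESeq2 size factor per mouse. Dividing each value by the worth of 1 read gave whole reads for 100% of values (tolerance 1e-06), and size factors recomputed from these equalled those of the authors (ratio 1). GENCODE gave symbols for 22679 of the 23594 identifiers.

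Testing was restricted to the 13145 genes whose mean over the 7 mice reached 10 normalized counts (10449 were left out) and done by limma 3.58.1 in R 4.3.3 on log2(value + 1), with an intensity trend and genotype as the only term. A fold change on this scale understates that of low genes. P-values were Benjamini-Hochberg adjusted over all genes tested, at a threshold of 0.05. The planned edgeR test on counts became an alternative, since the values are normalized. Alternatives were DESeq2 1.42.0, edgeR 4.0.16 with 3 scalings and limma-voom on the recovered reads (edgeR called 34 of the 51 genes higher with TMM, DESeq2 36), other pseudocounts and filters, leaving out each mouse, and subsets of mice by title. The subset outside the number series, the one without both lettered TgLC mice and the fit with the title series as a second term were chosen after seeing the data. Fits were tested on simulated data.

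The genes, lists, markers and motifs were chosen with earlier results of these data known. Values in every mouse are given for Hspa5, Xbp1 and the UPR sensors, for genes that passed with a change of 2-fold or more in either direction, and for up to 3 genes per step and direction by smallest adjusted p, while Canx, Derl2 and Derl3 were added after their values were seen. Of each other list up to 2 genes per direction were named. The other genes that fell, and Atf4, Ppp1r15a, Ddit3 and Trib3, were added likewise. Promoters are from RefSeq (GRCm38.p6), and exon overlaps from GENCODE M21. No protein sequence was used here.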

Additional observations from a re-analysis of the deposited data

Results flagged for a closer look

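In 2 of the 51 genes the highest TgLC mouse stood further from the other 3 than Dixon's 95% limit for 4 samples allows. Hspa5, which rose, had 14309.6 normalized counts in TgLC 4, a gap of 0.867 of the range of the TgLC mice. Stt3a, which did not pass between genotypes, had 1795 in TgLC 2, a gap of 0.843. The 51 groups of 4 TgLC mice were checked, and chance gives about 1 such value in 20 groups. The call on Hspa5 held with TgLC 4 left out.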

How the results depend on the processing

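Of the 51 genes 35 rose and 1 fell. The number that rose was 16 with edgeR on library totals and 9 among the 3 mice outside the number series. The number that fell was 4 with library totals, 2 in the number series, 2 without both lettered TgLC mice, 2 with the title series as a second term and 0 among the 3 other mice (limma, where 0 fell at an unadjusted p under 0.05 too), and 0 to 2 when 1 mouse was left out (0 without TgL 2, where 1 fell at an unadjusted p under 0.05). All genes called numbered 4104, against 850 among the 3 other mice and 2586 to 4119 with 1 mouse left out, fewest without TgL 1. With library totals, which place all genes lower, the log2 fold change turned to -0.27 for Atf6, -0.10 for Edem1, -0.16 for Herpud1, -0.05 for Sec61b, -0.09 for Sec63, -0.02 for Ssr1 and -0.06 for Stt3a, none of which had passed. Herpud1 was at -0.11 in the number series, and among the 3 other mice Sec62 was at 0.15 and Sec23b at -0.15, whereas Sec23b passed in the number series (0.65, adjusted p = 0.0125, limma). With 1 mouse left out the ranges were -0.02 to 0.09 for Atf6, -0.04 to 0.37 for Herpud1, -0.07 to 0.04 for Sec62 and -0.12 to 0.04 for Spcs3. Of the other secretory genes 56 rose and 6 fell in the main fit, where 16.2% of all genes tested rose and 15.0% fell. In the number series 18 of them fell, where 19.7% of all genes tested fell. Without both lettered TgLC mice 13 of them fell, where 18.2% of all genes tested fell. Cytosolic chaperones that fell numbered 14 in the number series and 11 without both lettered TgLC mice. Mitochondrial chaperones that fell numbered 2 without the intensity trend. Where no construction of an alternative explains a change, the cause was not tested. With edgeR on TMM or DESeq2 size factors, DESeq2, limma-voom, other pseudocounts and other filters, 33 to 36 of the 51 rose and 1 fell. No paired analysis was possible because the labels number no replicates and pair no mice across genotypes, and the mouse numbers used here only follow the order of the samples. The depth limits Derl3 most, at 4.08 to 34.4 normalized counts a mouse.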

Other observations

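The steps took unlike shares of the reads, a measure that includes the acute-phase transcripts in its total. The 9 luminal chaperones held 0.274% ± 0.0234 of reads in TgLC livers and 0.194% ± 0.00466 in TgL livers, and the lectins and disulfide enzymes 0.452% ± 0.0278 in TgLC livers and 0.336% ± 0.0164 in TgL livers (SD, n = 4 and n = 3). In both steps all TgLC mice were above all TgL mice. The ERAD genes held 0.111% ± 0.00568 of reads in TgLC livers and 0.11% ± 0.00702 in TgL livers, and the oligosaccharyltransferase genes 0.0637% ± 0.00496 in TgLC livers and 0.061% ± 0.00666 in TgL livers, with overlapping mice in both. The translocon genes, at 0.104% ± 0.00533 in TgLC livers and 0.0971% ± 0.00554 in TgL livers, overlapped as well.

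Counts within further gene pairs also shifted against each other. The ratio of Hspa5 to Hsp90b1 counts was 1.35 to 1.63 in TgLC mice and 0.877 to 1.26 in TgL mice, and that of Xbp1 to Atf6 counts was 3.79 to 6.99 in TgLC mice and 1.73 to 1.95 in TgL mice. These ratios were chosen after their values were seen and were not tested.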
